A study of Mus musculus with 2 samples.

Results

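Transcripts for 39 proteins that fold, modify, extract or monitor proteins in the endoplasmic reticulum (ER) were followed in T helper 2 (Th2) cells lacking Ecm1 and in wild-type Th2 cells. The genes were listed by function, with earlier results of these data known. They comprise 27 chaperones and folding enzymes, 9 genes of ER-associated degradation (ERAD) and 3 stress sensors. All 39 were among the 18193 genes named on the array, through 96 probe sets whose annotation gives a single gene symbol. Where a gene had several probe sets, the one with the highest mean log2 signal over the 2 arrays stands for it.

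Th2 cells from Ecm1 knockout (KO) mice, on 1 array, were set against Th2 cells from wild-type (WT) mice, also on 1 array. The labels put the mice of both groups in strain C57BL/6, call them female and give their age as 6 weeks. Spleen CD4 cells were isolated magnetically and cultured for 4 days on anti-CD3 (3 µg/ml) with anti-CD28 (2 µg/ml) and IL-4 (10 ng, the volume being garbled in the label), while antibodies at 10 µg/ml blocked IFN-γ and IL-12. The labels state neither the knockout allele nor how many animals lie behind each array, and the cells were isolated by CD4 alone. With 1 array per group no test, SD or p-value between groups was possible, and each difference describes these 2 arrays.

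Ecm1 itself had a signal of 19.3 in KO cells, against 29114.7 in WT cells. The signal of the Y-linked Eif2s3y was 2214.4 in KO cells, against 25.0 in WT cells, although the labels call the mice female. Xist, the RNA of the inactive X chromosome, was at 8715.3 in KO cells, against 19739.9 in WT cells (-1.08 on the log2 scale, centred), and any difference in the sex of the animals cannot be told apart from genotype. The sample descriptions name liver, whereas 7 of 8 hepatocyte markers, albumin (Alb) among them, lay below the floor on both arrays. The floor is the median signal of an array, 65.5 in KO cells, against 69.2 in WT cells, and a gene counts as measured when it reaches the floor on at least 1 array.

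The ER is where secreted and membrane proteins are folded. Hspa5 (also called BiP) binds unfolded chains with the help of J-domain cofactors, protein disulphide isomerases form and shuffle disulphide bonds, and calnexin and calreticulin hold glycoproteins until they are folded. Chains that fail are passed to the Syvn1 (Hrd1) complex and destroyed by the proteasome. When unfolded protein builds up, Ern1 (IRE1), Atf6 and Eif2ak3 (PERK) signal to the nucleus and raise the supply of these same proteins, and antibody-secreting plasma cells are well known for high levels of them.

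In KO cells 27 of the 39 genes were at least 2-fold higher than in WT cells, the other 12 were within 2-fold, and 0 were lower by that much. The same threshold was passed upward by 7.37% of all 11265 measured genes and downward by 4.45%. Log2 differences are KO minus WT, after subtraction of their median over the probe sets that reached the floor on both arrays. All 39 centred differences were above 0, with a median of 1.49 and a range of 0.07 to 3.11, where the median over all measured genes was 0.05. A 1.5-fold threshold was passed upward by 37 of the 39, and by 18.5% of all measured genes. A 3-fold threshold was passed by 17 of the 39, and by 2.30% of all measured genes. The genes differed among themselves by an SD of 0.66, against 0.68 over all measured genes. The technical SD of a single probe set, estimated from pairs of probe sets of the same gene, was 0.36 over 4657 genes. Deposited signals of the genes summed to 320127 in KO cells, against 134442.7 in WT cells.

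**Figure D1:**
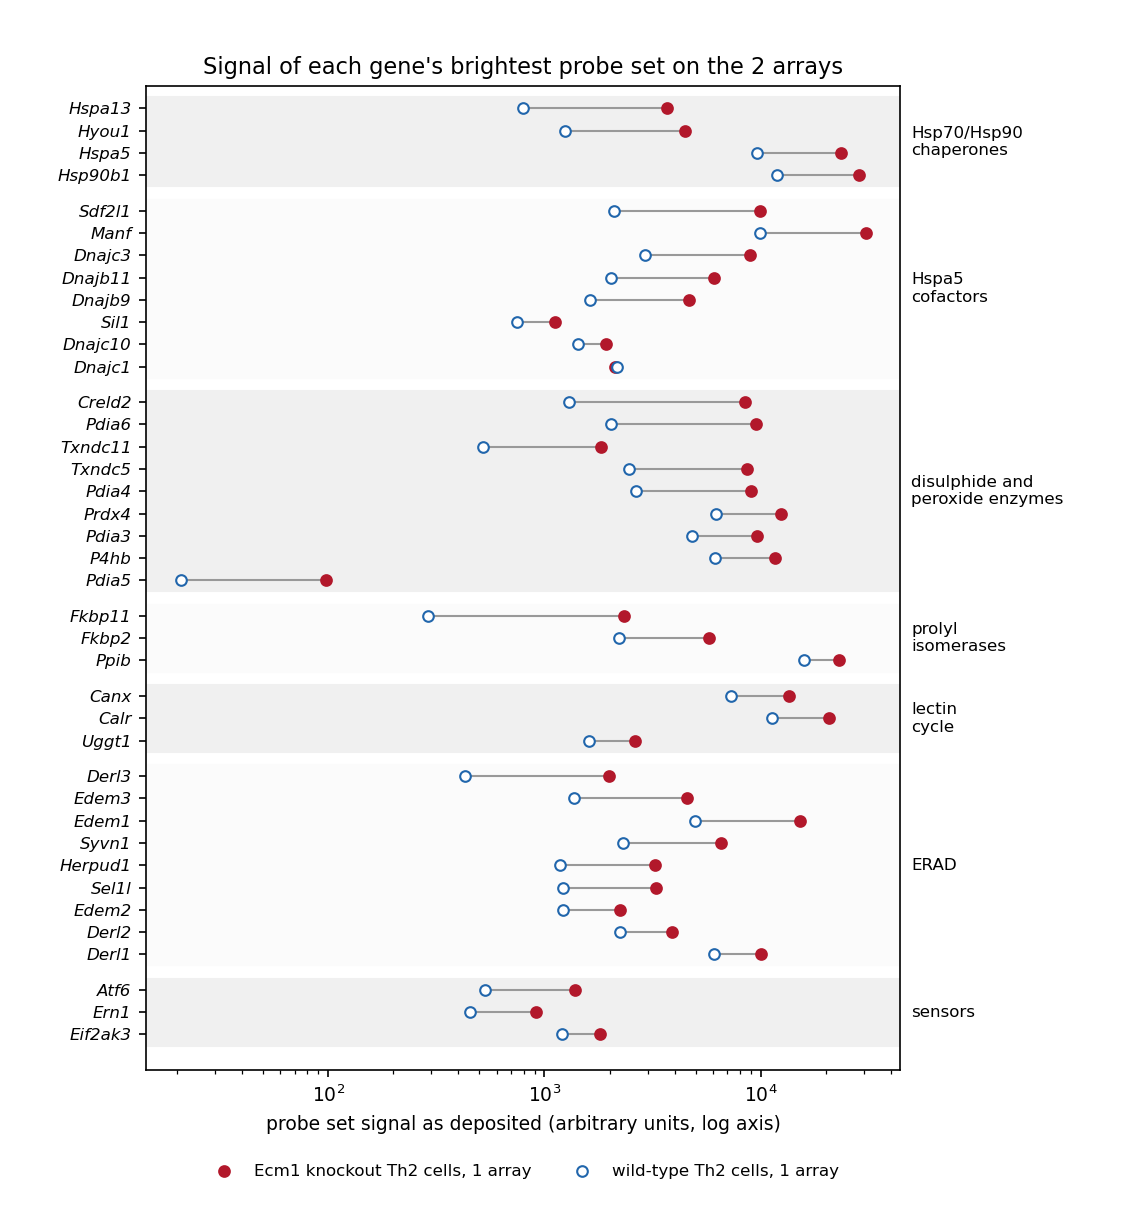
Deposited signal (arbitrary units, log axis) of the brightest probe set of each of the 39 genes, grouped by role, with a filled red point for Ecm1 knockout Th2 cells and an open blue point for wild-type Th2 cells (1 array each). The knockout point lies to the right of the wild-type point in every row but that of Dnajc1, where KO cells read 2125.6 and WT cells 2171.3.

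Among the large chaperones, all 4 were at least 2-fold higher in KO cells. Hspa5, the ER Hsp70, read 23615 in KO cells, against 9657.9 in WT cells, a log2 difference of 1.39. Hsp90b1, the ER Hsp90 known as GRP94, read 28410.2 in KO cells, against 11966.3 in WT cells (1.35). Their other probe sets differed from these, with 1.63 and 0.61 for Hspa5 and 2.05 for Hsp90b1, so their place among the 39 genes depends on the probe set. Hyou1, an Hsp70 relative that helps Hspa5 exchange its nucleotide, read 4471.7 in KO cells, against 1238.9 in WT cells (1.95, and 1.94 in its other probe set measured on both arrays). Hspa13, a further member of the Hsp70 family, read 3701.3 in KO cells, against 798.4 in WT cells (2.32), and its other probe set measured on both arrays was at 2.57.

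The cofactors of Hspa5 split into 5 genes at least 2-fold higher and 3 within 2-fold. Sdf2l1, which works in a complex with the J protein Dnajb11, read 9985.8 in KO cells, against 2100.2 in WT cells (2.35). Dnajb11 itself read 6074.3 in KO cells, against 2038.9 in WT cells (1.68). Manf, a secreted factor that binds Hspa5, read 30653.8 in KO cells, against 9903.3 in WT cells (1.73). The J proteins Dnajc3 (8945.8 in KO cells, 2908.7 in WT cells, 1.72) and Dnajb9 (4670.8 in KO cells, 1628.0 in WT cells, 1.62) lay close to it in their brightest probe sets. The other 4 probe sets of Dnajc3 ran from 0.42 to 1.51, and with probe sets averaged it was at 1.12.

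The other J proteins and the exchange factor were lower in their differences. Dnajc10, a J protein with disulphide reductase activity that serves degradation, read 1917.6 in KO cells, against 1422.5 in WT cells (0.53), while its other probe sets were at 1.25 and 1.41. Sil1, a nucleotide exchange factor of Hspa5, read 1124.5 in KO cells, against 749.1 in WT cells (0.69). Dnajc1, a membrane J protein, read 2125.6 in KO cells, against 2171.3 in WT cells (0.07). Its other 4 measured probe sets ran from -0.73 to 0.33, so Dnajc1 was the gene of the 39 nearest to no difference.

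Of 9 enzymes of disulphide chemistry 8 were at least 2-fold higher, with a median of 1.88. With probe sets averaged 6 were, and the median was 1.04, below those of the large chaperones (1.70) and the Hspa5 cofactors (1.37). Creld2, a cysteine-rich ER protein, read 8471.7 in KO cells, against 1303.2 in WT cells, 6.98-fold higher after centring (2.80 on the log2 scale). Pdia6, a disulphide isomerase, read 9501.2 in KO cells, against 2023.1 in WT cells (2.33). Neither had a further probe set above the floor on both arrays. Txndc11 (1825.3 in KO cells, 520.4 in WT cells, 1.91), Txndc5 (8606.2 in KO cells, 2464.5 in WT cells, 1.91) and Pdia4 (9052.1 in KO cells, 2648.9 in WT cells, 1.88), all with thioredoxin-like domains, came next and lay close together.

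The most general isomerases stood just above 2-fold. P4hb, the founding protein disulphide isomerase, read 11635.8 in KO cells, against 6154.6 in WT cells (1.02). Pdia3, the isomerase that partners the lectin chaperones, read 9583.6 in KO cells, against 4789.9 in WT cells (1.10), and the peroxidase Prdx4 12491.9 in KO cells, against 6224.0 in WT cells (1.11, with 1.05 and 0.94 in its other probe sets measured on both arrays). After quantile normalization or loess all 3 lay below 2-fold, and 5 of the 9 disulphide genes were past it. Pdia5, a further isomerase, read 97.7 in KO cells, against 20.7 in WT cells, which is under the floor, so it was at least 1.52-fold higher. With no floor its difference was 2.33.

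Prolyl isomerases, which turn the peptide bonds before proline, had the widest spread of the roles, with an SD of 1.25. This spread, over 3 genes, rests on Fkbp11. Fkbp11, abundant in secretory cells, read 2342.7 in KO cells, against 290.5 in WT cells, at 3.11 the largest difference of the 39. This value rests on 1 probe set of the kind that can hybridise with related transcripts, and without such probe sets only a bound of 0.93 was left (122.8 in KO cells, 54.6 in WT cells, the WT signal being under the floor). Fkbp2 read 5758.9 in KO cells, against 2205.0 in WT cells (1.49), and Ppib, the ER cyclophilin, 23138.8 in KO cells, against 15856.9 in WT cells (0.65). The other Ppib probe set was at 0.85.

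The lectin cycle, which retains glycoproteins through their sugars, had 0 of 3 genes at least 2-fold higher. Calnexin and calreticulin lay close below the threshold, and Uggt1 further below it. Calnexin (Canx) read 13595.9 in KO cells, against 7312.3 in WT cells, 1.997-fold after centring. Calreticulin (Calr) read 20675.6 in KO cells, against 11246.9 in WT cells (0.98), with 1.24 and 1.34 in its other probe sets. Uggt1, the folding sensor that puts glucose back on misfolded glycoproteins, read 2616.6 in KO cells, against 1600.1 in WT cells (0.81), with 0.06 in its other measured probe set. With probe sets averaged 2 of the 3 genes passed 2-fold, and 1 did when cross-hybridising probe sets were left out.

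Of the 9 ERAD genes, 6 were at least 2-fold higher and 3 within 2-fold, with a median of 1.56, against 1.49 for the 27 folding genes, of which 19 were at least 2-fold higher. Derl3, a derlin of secretory tissues, read 1987.9 in KO cells, against 430.6 in WT cells (2.31). The other derlins, membrane proteins of the export channel, were under 2-fold, at 10006.2 in KO cells, against 6060.2 in WT cells, for Derl1 (0.83) and 3874.8 in KO cells, against 2245.0 in WT cells, for Derl2 (0.89). Their other probe sets disagreed, with 0.66, 1.03 and 1.89 for Derl1 and -0.26 for Derl2.

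The mannosidase-like proteins Edem1, Edem2 and Edem3 mark glycoproteins for disposal. Edem1 read 15197.7 in KO cells, against 4969.9 in WT cells (1.72, and 1.23 in its other probe set). Edem3 read 4551.0 in KO cells, against 1375.8 in WT cells (1.83, and 0.76 in its other probe set). Edem2 read 2224.1 in KO cells, against 1215.6 in WT cells (0.97), just under 2-fold. Syvn1, Sel1l and Herpud1 of the ubiquitin ligase complex were each at least 2-fold higher in their brightest probe sets. The ligase Syvn1 read 6560.9 in KO cells, against 2309.3 in WT cells (1.61, and 1.61 in its other probe set). Its partner Sel1l read 3284.8 in KO cells, against 1220.8 in WT cells (1.53), while its other probe sets ran from 0.95 to 1.92. The scaffold Herpud1 read 3248.4 in KO cells, against 1182.7 in WT cells (1.56, and 1.54 in its other probe set).

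Among the sensors, 2 of 3 were at least 2-fold higher and the median was 1.11. Atf6, a membrane-held transcription factor freed by cleavage, read 1388.0 in KO cells, against 531.6 in WT cells (1.49), with 1.65 and 1.87 in its other probe sets. Ern1, the kinase and nuclease that splices Xbp1 mRNA, read 910.7 in KO cells, against 452.6 in WT cells (1.11, and 0.72 in its other probe set measured on both arrays). Eif2ak3, the kinase that slows translation through eIF2, read 1802.1 in KO cells, against 1204.1 in WT cells (0.68). It was at 1.54 with probe sets averaged, but its other probe sets lay below the floor in WT cells. Transcript levels carry no information on whether the sensors were activated.

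The 3 functional groups overlapped in their differences. The folding median was 0.07 below that of ERAD and 0.38 above that of the sensors, and the ERAD median was 0.45 above that of the sensors. With probe sets averaged, the sensor median was 1.54, above both other groups. No order of the groups can be read from these arrays.

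Promoter sequences are shown because some of these genes carry a known binding element, the ER stress response element (ERSE), to which Atf6 and Xbp1 bind together with NF-Y. The element was known in some of these genes beforehand, and its share among them is no result of these arrays. RefSeq promoter windows (GRCm38.p6, 250 bases before to 50 after the annotated start) were at hand for 33 of the 39 genes and searched on both strands. The counts over all genes given below include these 33. The ERSE letters, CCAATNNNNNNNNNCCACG, occurred in 9 of the 33 genes (27.3%), against 37 of 27025 genes in the table (0.137%). The shorter ERSE-II, ATTGGNCCACG, occurred in 2 of 33 (6.06%) and in 12 of 27025 genes (0.0444%). The unfolded protein response element core, TGACGTGG, occurred in 2 of 33, Txndc5 and Txndc11, and in 193 of 27025 genes (0.714%). CCACG alone, which each of these elements contains when both strands are read, occurred in 29 of 33 (87.9%) and 35.5% of all genes. The matched ERSE letters are printed below, read from CCAAT to CCACG, with those letters in capitals, 6 flanking bases on either side and the coordinates of the element itself.
Creld2 (chr15:88819520-88819538): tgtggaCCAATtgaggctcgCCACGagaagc
Pdia6 (chr12:17266491-17266509): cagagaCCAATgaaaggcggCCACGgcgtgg
Derl3 (chr10:75893242-75893260): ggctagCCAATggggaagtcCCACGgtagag
Dnajc3 (chr14:118937827-118937845): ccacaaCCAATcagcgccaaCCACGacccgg
Syvn1 (chr19:6046532-6046550): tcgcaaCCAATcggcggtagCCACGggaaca
Hspa5 (chr2:34772025-34772043): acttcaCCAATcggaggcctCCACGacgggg
Hsp90b1, first (chr10:86705638-86705656): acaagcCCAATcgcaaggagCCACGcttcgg
Hsp90b1, other (chr10:86705533-86705551): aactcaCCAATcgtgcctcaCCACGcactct
Canx (chr11:50325800-50325818): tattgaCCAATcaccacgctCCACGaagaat
Calr (chr8:84847075-84847093): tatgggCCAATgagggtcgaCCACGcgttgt

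The 10 elements lay upstream of the annotated start, between 212 and 26 bases from it, 6 on the strand of the gene and 4 on the other. The ERSE-II matches were in Herpud1, upstream of the start, and in Dnajb11, just downstream of it.
Herpud1 (chr8:94386377-94386387): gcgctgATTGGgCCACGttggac
Dnajb11 (chr16:22857852-22857862): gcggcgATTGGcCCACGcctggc

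**Figure D2:**
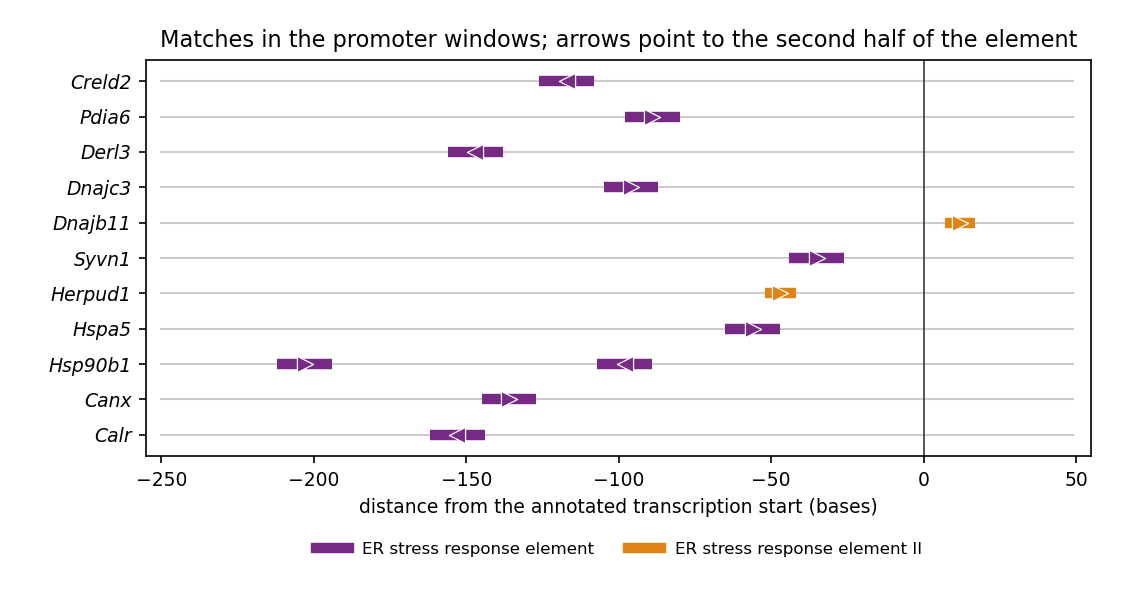
Positions of ERSE (purple) and ERSE-II (orange) matches relative to the annotated transcription start, in bases, for the 11 genes that hold one, ordered by their difference between the arrays from Creld2 (2.80) at the top to Calr (0.98) at the bottom. Each grey line is a promoter window, and arrowheads give the direction in which the element reads.

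The genes with an ERSE had differences from 0.98 to 2.80 with a median of 1.61, and 7 of 9 were at least 2-fold higher. The 24 genes with a window but no ERSE had a median of 1.30, and 16 of them were at least 2-fold higher. These medians are a description and were not compared by a test. Fkbp11 and Sdf2l1, with differences of 3.11 and 2.35, held none in these windows. The 250 bases before the start of Creld2 (chr15:88819396-88819645) and of Pdia6 (chr12:17266339-17266588), the genes with an ERSE and the largest differences, are given 5′ to 3′ on the strand of the gene. Capitals mark the letters of the element, which in Creld2 lies on the opposite strand.
Creld2: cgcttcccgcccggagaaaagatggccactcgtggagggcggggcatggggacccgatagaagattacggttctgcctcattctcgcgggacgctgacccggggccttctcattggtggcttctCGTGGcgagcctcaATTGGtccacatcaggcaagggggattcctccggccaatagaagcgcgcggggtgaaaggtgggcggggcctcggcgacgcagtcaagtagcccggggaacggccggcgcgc
Pdia6: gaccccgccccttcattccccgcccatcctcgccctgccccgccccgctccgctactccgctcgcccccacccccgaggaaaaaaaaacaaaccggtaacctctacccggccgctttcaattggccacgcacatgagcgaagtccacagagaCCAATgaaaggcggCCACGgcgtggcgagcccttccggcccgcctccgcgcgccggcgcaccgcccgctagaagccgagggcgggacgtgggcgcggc

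Probe sets of the same gene mostly went the same way. Of the 96 probe sets, 77 reached the floor on the KO and the WT array alike, and 73 of these were above 0, with 49 at least 2-fold higher and none at least 2-fold lower. By the centring, the median over all 20834 probe sets that reached the floor on both arrays is 0. Their share past 2-fold was not counted, while 7.37% of all measured genes were at least 2-fold higher. The 4 below 0 belonged to Dnajc1 (3) and Derl2 (1). For 22 genes another probe set could be set beside the brightest: in 21 the pair went the same way, and the technical SD of the pairs was 0.41. The exception was Derl2. How often such pairs went the same way over all genes was not counted. In 10 genes (Calr, Canx, Derl1, Dnajc10, Dnajc3, Edem3, Ern1, Hspa5, Prdx4 and Sel1l) the probe sets measured on both arrays lay on either side of 2-fold.

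**Figure D3:**
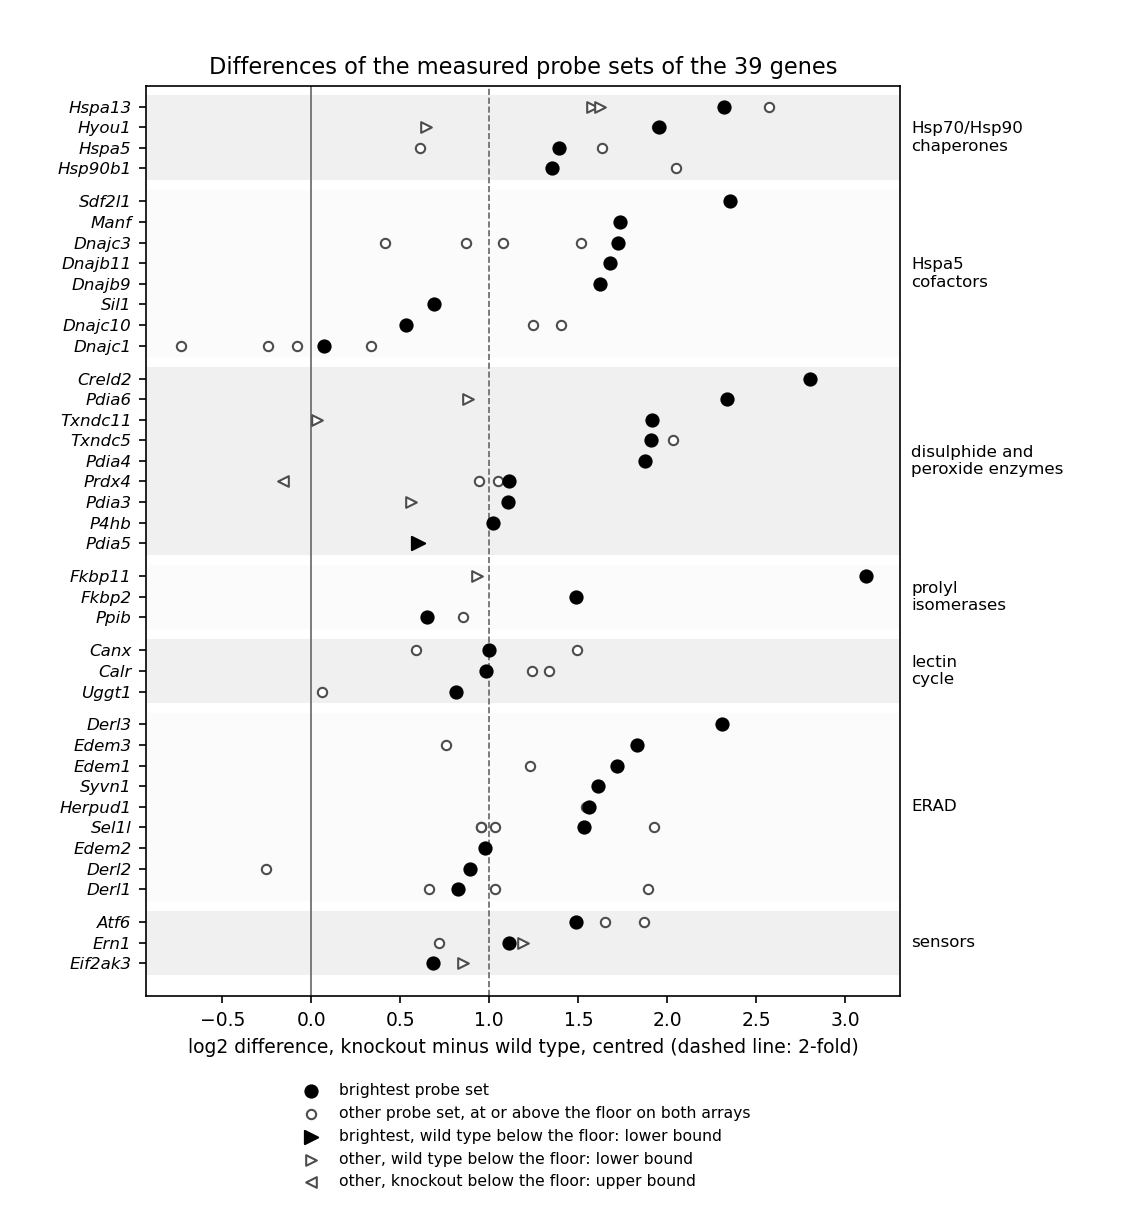
Centred log2 difference, KO minus WT, of each measured probe set of the 39 genes, with filled symbols for the brightest and open symbols for other probe sets, and triangles for bounds where 1 array was below the floor. The dashed line marks 2-fold. Nearly all points lie right of 0 and Dnajc1 straddles it, while 10 genes, among them Dnajc10, Dnajc3, Sel1l and Hspa5, have probe sets measured on both arrays on either side of 2-fold.

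Other genes of the same machinery, taken from lists of its further enzymes and regulators, had lower medians than the 39. The 39 and these lists were chosen with earlier results of these data known. The part of that choice in the contrast was not tested. Of 21 measured ER folding genes outside the 39, 3 were at least 2-fold higher and none 2-fold lower (median 0.36). These were the oxidoreductase chaperone Erp44 (7562.0 in KO cells, 2759.6 in WT cells, 1.56), Erp29 (1.46) and the oxidase Ero1b (1.41), while Selenof (0.95) and Dnajc25 (0.90) were below 2-fold. Of 30 further ERAD genes, 5 were at least 2-fold higher and none lower (median 0.37): the mannosidase Man1b1 (1.38), Selenos (1.28), the ubiquitin-conjugating enzyme Ube2j1 (1.12), Ubxn4 (1.07) and the ligase Rnf185 (1.04).

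Stress regulators had a median of 0.43, with 4 of 19 at least 2-fold higher and none lower. Bhlha15, a transcription factor of secretory cells, read 2070.1 in KO cells, against 217.7 in WT cells (3.35). Wfs1, an ER membrane protein, was at 2.34, Creb3l2 at 1.29 and Atf6b at 1.12, and Atf3 (0.99) was just below. Xbp1, the transcription factor made by Ern1 splicing, read 28935.4 in KO cells, against 15838.9 in WT cells (0.97), with 1.35, 1.35 and 1.67 in its other probe sets, none of which is known here to tell the spliced form apart. Atf4, the factor downstream of Eif2ak3, read 7212.5 in KO cells, against 4163.8 in WT cells (0.90). Ddit3, the death-linked factor known as CHOP, read 990.3 in KO cells, against 1265.2 in WT cells (-0.25, and 0.31 in its other probe set).

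Among neighbouring steps of protein handling, translocon and oligosaccharyl transferase genes, which bring chains into the ER and attach sugars, had a median of 0.97, with 16 of 34 at least 2-fold higher. Tram2 (2.36), Ssr2 (2.07), Srprb (1.97), Rpn2 (1.89) and Rpn1 (1.87) led them. Chaperones of the cytosol and mitochondria had a median of 0.32, with 2 of 48 at least 2-fold higher, Hspa2 (1.26) and Hsph1 (1.24). Grpel1 was at 0.94, Cct3 at 0.77 and Dnaja4 at -0.78. These lists were not tested against the 39 genes.

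**Figure D4:**
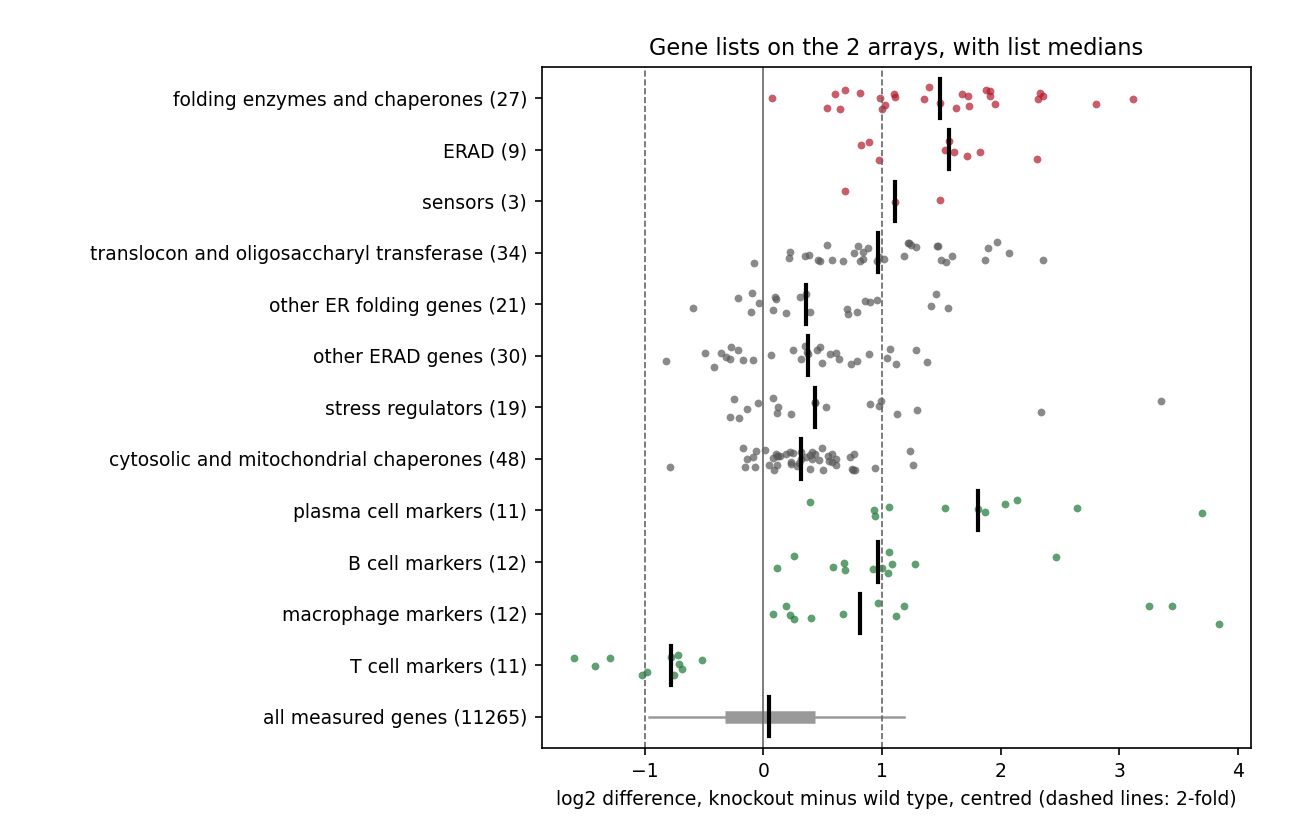
Centred log2 differences, KO minus WT, of single genes (points) in each list, with the number of measured genes in brackets and the list median as a black bar. For all measured genes the thick grey bar spans the central quartiles and the thin line the 5th to 95th percentile. The folding, ERAD and sensor groups (red) have medians of 1.49, 1.56 and 1.11, and the T cell markers lie wholly below 0.

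Markers of other cell types differed between the arrays along with these genes. Of 11 plasma cell markers measured, 8 were at least 2-fold higher in KO cells and none lower (median 1.81), and their signals summed to 160365.6 in KO cells, against 73335.4 in WT cells. Sdc1 (3.70), Ell2 (2.64) and Irf4 (2.14) led them, of which Irf4 is also expressed by activated T cells, and the antibody joining chain Jchain read 26366.0 in KO cells, against 13593.4 in WT cells. B cell markers (12 measured of 13, Pax5 being below the floor) had 5 at least 2-fold higher (median 0.96) and summed to 38079.2 in KO cells, against 19383.7 in WT cells, with Blnk (2.46), Cd79b (1.28) and Blk (1.08) in front. Macrophage markers (12 measured of 13, without Itgam) also had 5 at least 2-fold higher (median 0.82), summed to 6932.0 in KO cells, against 1354.4 in WT cells, and were led by Chil3 (3.84), Lyz2 (3.45) and Arg1 (3.25). Several of the macrophage markers were below the floor in WT cells, so their differences are bounds, and the median takes them in.

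T cell markers went the other way. All 11 lay below 0, with 4 at least 2-fold lower (median -0.77), and their signals summed to 67270.7 in KO cells, against 125260.7 in WT cells. Cd4 (-1.59), Cd5 (-1.41) and Cd247 (-1.29) were lowest. No marker of these lists was at 0 on either array. In bulk RNA, more cells of a type and more RNA per cell cannot be told apart, and the part of other cell types in the differences of the 39 genes was not tested.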

How the data were processed

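Per the labels' protocols, biotin-labelled cRNA from 3 µg of total RNA was hybridised to Affymetrix arrays. The authors deposited an intensity on a linear scale for each of 45101 probe sets per array. No source used here names the summarisation software. Without the highest and lowest values, the central 96% averaged 500.004 on the KO and the WT array, which is global scaling to a fixed mean. Under such scaling, higher signal in some transcripts lowers the others.

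Names came from GEO's platform annotation of the probe sets (34945 with 1 symbol, 932 with several, 9160 with none, 64 controls), and only those with 1 symbol were used. Gene identifiers were matched to RefSeq, and 0 symbols changed. Signals below the floor (the 50th percentile of each array) were set to it for the differences of genes measured on 1 array only, which are bounds. Log2 differences, KO minus WT, were centred by their median (-0.10) over 20834 probe sets. Genes at least 2-fold apart were counted among 11265 measured genes, 10144 of them measured on both arrays. No test was run, and the number of arrays limits the precision. The procedure was tested on simulated data.

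The members, lists, thresholds and motifs were chosen with earlier results of these data known. All 39 genes are named. Other genes named are the 5 (markers: 3) of each list with the largest difference among those measured on both arrays, with Xbp1, Atf4 and Ddit3. Alb, Ecm1, Eif2s3y, Xist, Jchain, Tnfrsf17, Pax5 and Itgam were added after their values were seen. So were Alg12, Adcy3, Pan2, Spats2l and Acacb, which hold the ERSE letters. Protein sequences were not analysed here. Alternatives were no centring, quantile normalization, loess (span 0.3), no floor, a floor at the 70th percentile, averaged probe sets, no _x_at or _s_at probe sets, and thresholds of 1.5-fold and 3-fold. Python 3.11.15, pandas 2.3.3 and statsmodels 0.14.6 were used.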

Additional observations from a re-analysis of the deposited data

How the results depend on the processing

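No paired analysis was possible because there was 1 array per group. Over the 7 alternatives that change values, the median of the 39 genes ran from 1.28 to 1.51, that of folding genes from 1.19 to 1.61, that of ERAD genes from 1.29 to 1.61 and that of sensors from 1.01 to 1.54. Of the 27 genes at least 2-fold higher, 21 were so under each of these alternatives. Ern1, Fkbp11, P4hb, Pdia3, Pdia4 and Prdx4 fell short under at least 1, and Calr, Canx, Derl1, Dnajc10, Eif2ak3 and Pdia5 passed it under at least 1. Dnajc1 was the only one to change side of 0, which it did without centring, after loess and with probe sets averaged (-0.05). Averaging takes in signals below the floor, which left Pdia4 at 0.09. It also put the sensor median at 1.54, the folding median 0.35 below it (-0.35) and the ERAD median 0.25 below it (-0.25). Without centring the median of all measured genes was -0.054, and 3 ERAD genes outside the 39 and 2 B cell markers were at least 2-fold higher. With no floor the macrophage markers had a median of 1.34 with 8 past 2-fold, and with the floor at the 70th percentile, which left 4 of them measured, 2.08 with 3. At 1.5-fold, 7 stress regulators, 9 other folding genes, 10 other ERAD genes and 10 B cell markers were higher and 10 T cell markers lower. At 3-fold, 17 of the 39 genes were higher, 0 sensors, 2 stress regulators, 0 other folding and 0 other ERAD genes, 1 B cell and 3 macrophage markers, and 1 T cell marker was lower. Apart from averaging and the threshold, the causes of these shifts were not tested. Array, culture and animal error were not measured.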

Other observations

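The ERSE letters occurred in the promoter windows of 11 further genes named on the array, of which 6 were measured. Their median difference was -0.30, and 1 of them was at least 2-fold higher in KO cells, the ER oxidase Ero1b (3858.1 in KO cells, 1559.6 in WT cells, 1.41). The mannosyltransferase gene Alg12, which builds the sugar chains of ER glycoproteins, read 510.3 in KO cells, against 349.3 in WT cells (0.65). Adcy3 (-0.18) and Pan2 (-0.55) were below 0, and Spats2l and Acacb were below the floor in KO cells. These genes were singled out by the letters in their promoters, and no test was run on them.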
